A study of Mus musculus with 20 samples.

Results

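Olfr1179, Olfr1181, Olfr1183 and Olfr1186 are mouse odorant receptor genes that lie close together on chromosome 2. They are 4 of the 19505 named genes and 4 of the 1080 odorant receptor genes measured. They were chosen because their log2 signals were higher with odor in GFP+ cells, so their values in that comparison, and in the comparisons of GFP+ with GFP- cells, are descriptions without a test. Each is read by 1 probe set, a group of array probes for 1 gene (TC0200004018.mm.2, TC0200004020.mm.2, TC0200001319.mm.2 and TC0200001322.mm.2, in the order of the genes above).

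Odorant receptors are G protein-coupled receptors in the cilia of olfactory sensory neurons. A mature neuron expresses 1 allele of 1 receptor gene, so a receptor's signal in a pool of neurons reflects both how many neurons chose it and how much mRNA each holds. In such bulk samples fewer cells of a type and less RNA per cell cannot be told apart. Receptor genes stand in clusters, and neighbours in a cluster are often related in sequence but can bind different odorants. S100a5 encodes a calcium-binding protein of these neurons whose expression depends on their activity, which is the basis of a sort by an S100a5 reporter.

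The study used S100a5-tauGFP mice, which carry a tau-GFP reporter for S100a5, of both sexes and 7 to 12 weeks of age. The groups were 5 GFP+ samples and 5 GFP- samples of odor mice, stimulated with an artificial cigarette smoke odor, and 5 GFP+ and 5 GFP- samples of vehicle mice, given filtered air. All 30 mice sat singly in clean-air chambers for 40 h, with 10 s pulses every 20 min from 26 h on. Each sample is the sorted olfactory mucosa of 3 pooled mice, so a value is the mean of a pool and not of an animal. The series' design text names bourgeonal as the odorant, whereas the labels of all 20 samples name the smoke odor, which is used here.

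The labels were checked first. S100a5 stood higher in GFP+ than in GFP- cells of all 5 odor pools (difference 2.15, adjusted p = 0.00131 by limma) and of all 5 vehicle pools (1.30, adjusted p = 0.0368, or 0.124 with the replicate number as a block). All 10 listed markers of mature olfactory sensory neurons were measured. Their summed log2 level was 20.7 to 21.9 in odor GFP+, 20.7 to 21.9 in vehicle GFP+, 20.6 to 21.7 in odor GFP- and 20.5 to 21.7 in vehicle GFP- cells, and these ranges overlapped in all 4 groups. These sums follow the brightest markers. Each of the 10 markers averaged higher in GFP+ than in GFP- cells in both conditions. Ano2 averaged 18.28 in odor GFP+ against 17.67 in odor GFP- cells, and 18.09 against 17.26 with vehicle, with overlapping ranges. Whether the fractions held equal shares of mature neurons was not tested. The 8 white blood cell markers separated the fractions, with summed log2 levels of 9.30 to 9.92 in odor GFP+, 9.62 to 9.99 in vehicle GFP+, 18.1 to 19.4 in odor GFP- and 18.4 to 20.1 in vehicle GFP- cells. None of them was listed at 0, and 3 of 8 lay below the mean background in both GFP+ groups. The 4 arrays of replicate 5 stood apart, with median receptor signals of 9.19 to 9.69 against 6.87 to 8.22 on the other 16 arrays. Outside replicate 5, vehicle GFP- 1, vehicle GFP+ 2 and odor GFP- 2 correlated least with their groups.

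In chromosome order the receptors run Olfr1179, Olfr1180, Olfr1181, Olfr1182, Olfr1183, Olfr1184, Olfr1185-ps1 and Olfr1186, with no gene of another kind between. Olfr1185-ps1 is annotated as a pseudogene and had no probe set. By their older names, Olfr1179 (MOR225-2) and Olfr1181 (MOR225-9P) belong to receptor family MOR225, and Olfr1183 (MOR230-6) and Olfr1186 (MOR230-5) to family MOR230. The 4 genes thus come from 2 families.

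The DNA around the annotated gene start is shown for the 2 receptors for which RefSeq windows were given, because their signals moved the same way in GFP+ cells. Each run is 5′ to 3′ on the gene's strand in build GRCm38.p6, 300 bases that run across the start, with the first 3 bases of the gene model in capitals. The Olfr1181 window is chr2:88423974-88424273 on the minus strand and the Olfr1186 window is chr2:88525251-88525550 on the plus strand.
Olfr1181: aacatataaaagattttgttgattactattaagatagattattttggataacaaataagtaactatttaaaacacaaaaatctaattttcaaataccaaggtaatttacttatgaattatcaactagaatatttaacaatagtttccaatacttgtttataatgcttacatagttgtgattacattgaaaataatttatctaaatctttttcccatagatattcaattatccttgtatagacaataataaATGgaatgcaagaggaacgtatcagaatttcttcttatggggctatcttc
Olfr1186: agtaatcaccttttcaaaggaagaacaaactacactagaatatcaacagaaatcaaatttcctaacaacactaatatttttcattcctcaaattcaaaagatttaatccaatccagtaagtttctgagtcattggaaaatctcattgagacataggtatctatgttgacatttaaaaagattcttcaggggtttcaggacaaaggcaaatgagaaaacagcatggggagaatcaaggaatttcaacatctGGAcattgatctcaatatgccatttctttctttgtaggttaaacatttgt
The capitals in Olfr1181 are ATG, so its RefSeq model begins at the coding start and the window need not hold the site where transcription starts. G and C made up 23.7% of the Olfr1181 window and 32.3% of the Olfr1186 window, against a median of 35% over 944 receptor windows.

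Both windows were searched on both strands for CCCNNGGG, a core of the sites bound by Olf/Ebf factors, and for TAATTA, a core of homeodomain sites. Neither motif was found in either window, which says only that these letters are not in these bases. CCCNNGGG stood in 3.07% of receptor windows and in 0 of the 17 windows of Olfr1181, Olfr1186 and the neighbours. No window of Olfr1179 or Olfr1183 was searched. TAATTA stood in 18.6% of receptor windows and in 6 of those 17. Over all 32851 windows the shares were 13.7% for CCCNNGGG and 5.29% for TAATTA.

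In GFP+ cells the mean log2 signal of each of the 4 receptors was higher with odor than with vehicle, by 0.92 for Olfr1179 to 1.74 for Olfr1186. These are the values by which the genes were chosen. Over all 22206 probe sets limma called 0 in this comparison (percent called 0), with 61 at an unadjusted p under 0.05.

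Olfr1186, of family MOR230, had log2 signals of 7.46, 8.73, 7.39, 6.92 and 6.45 in odor GFP+ cells (replicates 1 to 5), against 5.72, 5.03, 5.08, 6.87 and 5.58 in vehicle GFP+ cells. Odor samples 1 to 4 lay above every vehicle sample, and odor 5 lay below vehicle 4, so the groups overlapped through that array alone. The means were 7.39 ± 0.85 with odor and 5.66 ± 0.74 with vehicle (SD, n = 5 each), a difference of 1.74 (SE 0.46), or 3.33-fold. Only 1 of the 5 vehicle samples exceeded the 95th percentile of the array's background controls, so by these controls the fold is set against signal at background. Counted from the highest rise, it ranked 1 of all 22206 probe sets.

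Olfr1183, also of MOR230, had 8.84, 9.30, 7.996, 10.06 and 10.46 in odor GFP+ cells, against 7.92, 7.26, 5.84, 7.30 and 9.97 in vehicle GFP+ cells. The highest vehicle sample was replicate 5, which exceeded odor samples 1 to 3. Its means were 9.33 ± 0.98 with odor and 7.66 ± 1.50 with vehicle, a difference of 1.67 (SE 0.69), or 3.19-fold, and the fourth highest rise over all probe sets. Without vehicle replicate 5 the difference was 2.25.

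Olfr1181, of family MOR225, had 6.96, 8.33, 7.43, 7.53 and 7.22 in odor GFP+ cells, against 5.76, 6.66, 7.00, 6.28 and 4.99 in vehicle GFP+ cells. Vehicle 3 exceeded odor 1 by a small amount, and all other odor samples lay above all vehicle samples. The means were 7.49 ± 0.51 with odor and 6.14 ± 0.79 with vehicle, a difference of 1.36 (SE 0.40), or 2.56-fold, with rank 8 counted from the highest rise. Here too only 1 of the 5 vehicle samples exceeded the 95th percentile of the background controls, so this fold is also set against signal near background.

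Olfr1179, the other MOR225 gene, had 7.47, 8.31, 7.28, 7.52 and 8.54 in odor GFP+ cells, against 5.69, 6.86, 6.76, 7.18 and 8.05 in vehicle GFP+ cells. Vehicle 5 lay above odor 1, 3 and 4. The means were 7.83 ± 0.56 with odor and 6.91 ± 0.85 with vehicle, a difference of 0.92 (SE 0.42), or 1.89-fold, with rank 19 over all probe sets and 15 among receptors, counted from the highest rise. It was 0.62 without vehicle replicate 1. It was 0.38 without the pools of the 3 arrays that, outside replicate 5, correlated least with their groups, an alternative chosen after seeing the data.

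**Figure D1:**
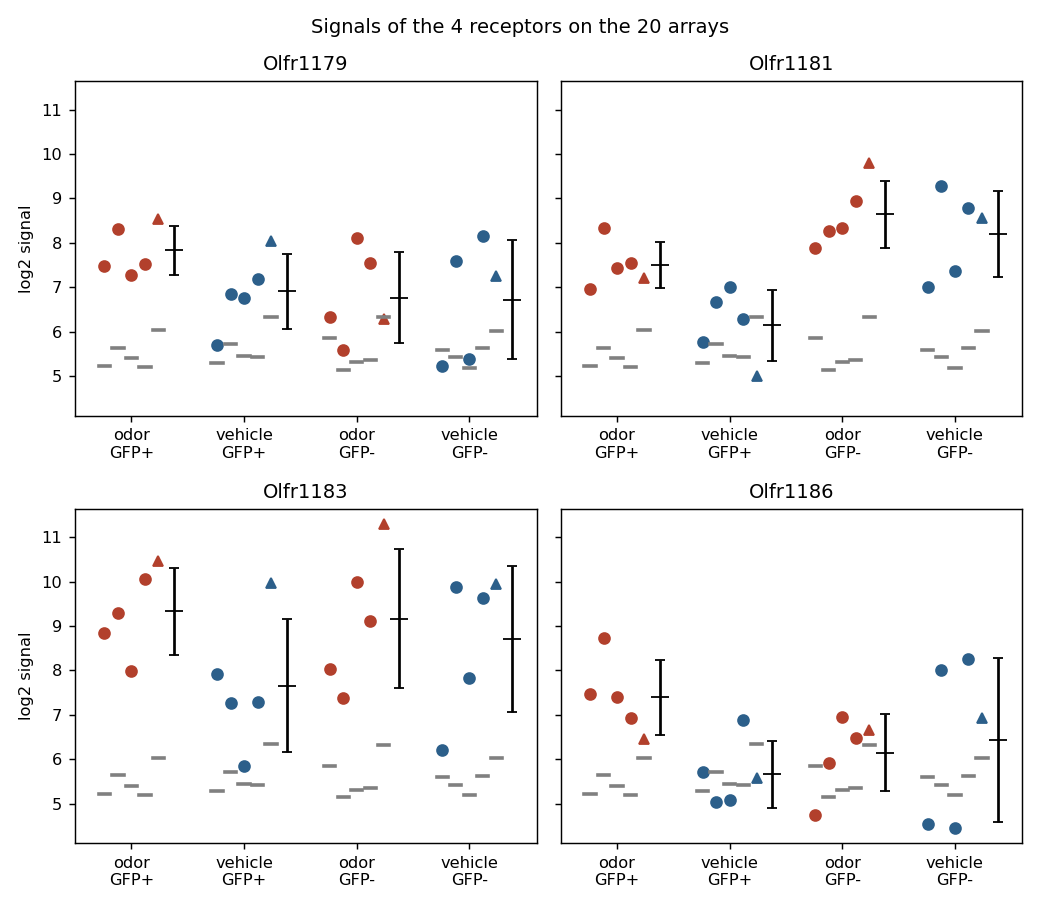
Log2 signal of each receptor (one panel each) in the 5 samples of odor GFP+, vehicle GFP+, odor GFP- and vehicle GFP- cells. Points are samples and triangles are those of replicate 5, bars are the mean and SD, and grey dashes are each array's median background control signal. In GFP+ cells the odor points sit mostly above the vehicle points, with overlap in all 4 panels, while in GFP- cells the ranges of both conditions overlap.

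The odor and vehicle GFP+ samples overlapped for all 4 receptors. Every odor sample lay above every vehicle sample for 0.0585% of all probe sets and for 0.0926% of receptors. With the replicate number as a block the differences cannot change, since each number holds 1 odor and 1 vehicle sample. Their SE was then 0.24 for Olfr1179, 0.24 for Olfr1181, 0.30 for Olfr1183 and 0.40 for Olfr1186, as a description of the values that chose the genes. Taken by replicate number, odor exceeded vehicle in 5 of 5 pairs of GFP+ samples for each of the 4 receptors, as it did for 3.15% of all probe sets and 4.26% of receptors. The smallest pair difference of Olfr1186 was 0.04 in replicate 4, and the largest was 3.70 in replicate 2. Within replicate 5 alone, with 1 array per group, the differences were 0.49 for Olfr1179, 2.22 for Olfr1181, 0.48 for Olfr1183 and 0.87 for Olfr1186. Within replicates 1 to 4 they were 1.03, 1.14, 1.97 and 1.95 in the same gene order. The receptors pointed the same way in both sets of arrays. Since the genes were chosen on these same arrays, that direction is no separate evidence. The difference of Olfr1181 was larger in replicate 5, and those of the other 3 were larger in replicates 1 to 4.

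**Figure D2:**
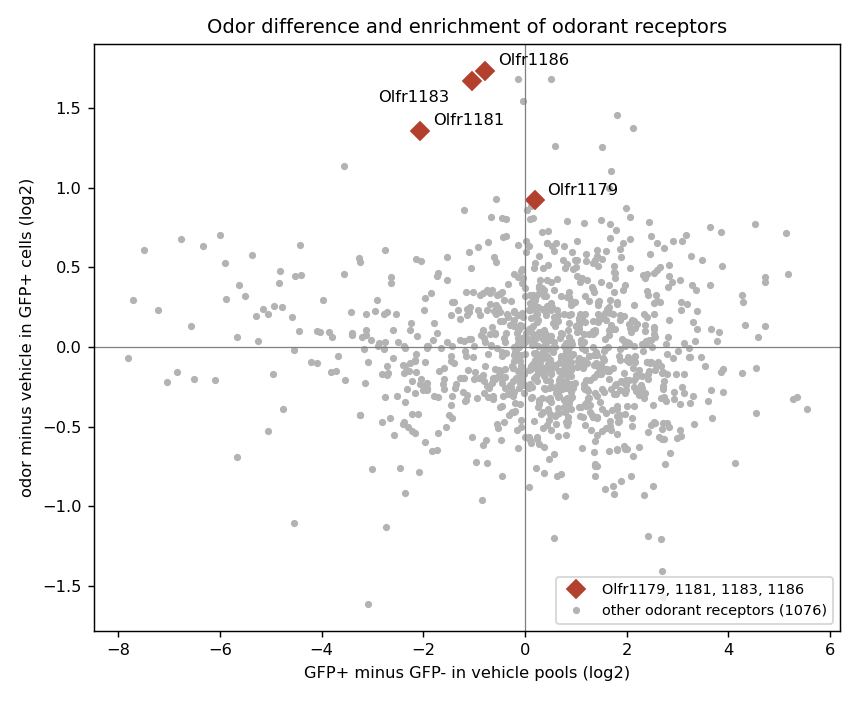
Each point is 1 of 1080 odorant receptors, by its log2 difference GFP+ minus GFP- in vehicle pools (horizontal axis) and its log2 difference odor minus vehicle in GFP+ cells (vertical axis). Both axes use the vehicle GFP+ samples, so no relation between them is read. The 4 marked receptors lie between 0.92 and 1.74 on the vertical axis, and Olfr1181, Olfr1183 and Olfr1186 lie left of 0.

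GFP- cells gave the comparison of odor with vehicle that the choice of the genes did not use. Here none of the 4 receptors differed past the test, and the direction was not shared by all. Over all 22206 probe sets limma called 0 (percent called 0), with 30 at an unadjusted p under 0.05.

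Olfr1186 had 4.75, 5.91, 6.95, 6.47 and 6.66 in odor GFP- cells, against 4.54, 8.01, 4.45, 8.27 and 6.94 in vehicle GFP- cells. The vehicle samples split into low (1 and 3) and high (2, 4 and 5), and the odor samples lay above the low ones, with odor 3 level with vehicle 5. The difference was -0.29 (95% interval -2.01 to 1.42, limma adjusted p = 1.0), with odor higher in 2 of 5 pairs. Its means were 6.15 ± 0.87 with odor and 6.44 ± 1.85 with vehicle.

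Olfr1183 had 8.03, 7.38, 10.00, 9.12 and 11.30 in odor GFP- cells, against 6.21, 9.89, 7.82, 9.64 and 9.94 in vehicle GFP- cells. The difference was 0.47 (95% interval -1.42 to 2.35, limma adjusted p = 1.0), with odor higher in 3 of 5 pairs. The groups overlapped, and only odor 3 and odor 5 exceeded every vehicle sample.

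Olfr1181 had 7.88, 8.28, 8.32, 8.94 and 9.80 in odor GFP- cells, against 7.01, 9.27, 7.37, 8.79 and 8.57 in vehicle GFP- cells. Its difference was 0.44 (95% interval -0.66 to 1.54, limma adjusted p = 1.0), with odor higher in 4 of 5 pairs. Odor 5 was the highest sample and vehicle 1 the lowest.

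Olfr1179 had 6.32, 5.58, 8.10, 7.54 and 6.28 in odor GFP- cells, against 5.21, 7.58, 5.38, 8.16 and 7.25 in vehicle GFP- cells. The difference was 0.05 (95% interval -1.39 to 1.49, limma adjusted p = 1.0), with odor higher in 2 of 5 pairs. For all 4 receptors the interval holds both 0 and a 2-fold rise (a log2 difference of 1), so these samples do not show that odor left GFP- cells unchanged.

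Vehicle GFP- 1 and 3 were the lowest vehicle GFP- samples for all 4 receptors. The median over all 1080 receptors was also low there, at 7.10 and 6.87, against 7.91 to 9.19 on the other vehicle GFP- arrays. In odor GFP- cells that median was 7.03 to 9.41. The summed white blood cell level was 20.1 on vehicle GFP- 1 and 19.6 on vehicle GFP- 3, with 18.4 to 19.8 on the other vehicle GFP- arrays. The part of either in the receptors' values was not tested.

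The difference between GFP+ and GFP- cells of a pool describes the sort, but it is not separate from the choice of the genes. It contains the GFP+ values by which they were chosen. That choice favours low vehicle GFP+ and high odor GFP+ signals, and so lower differences in vehicle pools and higher ones in odor pools. In vehicle pools Olfr1181 stood lower in GFP+ cells of all 5 pools, with differences of -3.58 to -0.37. The mean difference GFP+ minus GFP- was -2.06 ± 1.26 for Olfr1181, -1.04 ± 1.86 for Olfr1183, -0.78 ± 1.69 for Olfr1186 and 0.19 ± 1.01 for Olfr1179 (SD, n = 5 pools). Counted from the highest difference in vehicle pools they ranked 959, 884, 859 and 659 of 1080 receptors, all below the median receptor, which was at 0.51. For comparison, 16.5% of receptors were lower in GFP+ cells of all 5 vehicle pools.

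In odor pools the same differences were -1.15 ± 0.96 for Olfr1181, 0.17 ± 1.57 for Olfr1183, 1.24 ± 1.42 for Olfr1186 and 1.06 ± 1.49 for Olfr1179. GFP+ exceeded GFP- in 1, 3, 4 and 3 of 5 pools in that order. Olfr1181 thus had a lower mean in GFP+ cells in both conditions, while the mean of Olfr1186 was above 0 in odor pools and below 0 in vehicle pools. The pools differed widely: for Olfr1186 the odor pools gave 2.71, 2.82, 0.45, 0.44 and -0.21, against 1.18, -2.98, 0.64, -1.39 and -1.36 in vehicle pools. The sign of the Olfr1183 mean in odor pools rested on odor replicate 2, without which it was -0.27, and that of the Olfr1179 mean in vehicle pools on vehicle replicate 3, without which it was -0.11.

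The change of this enrichment with odor, odor pools minus vehicle pools, was 2.03 (SE 0.81) for Olfr1186, 1.21 (SE 0.88) for Olfr1183, 0.91 (SE 0.60) for Olfr1181 and 0.87 (SE 0.67) for Olfr1179. Counted from the highest change among 1080 receptors these ranked 2, 11, 22 and 28, and the median receptor changed by -0.13. Since the change contains the GFP+ comparison by which the genes were chosen, its direction is no separate evidence. For Olfr1186 the change is the sum of 1.74 in GFP+ cells and the sign-turned -0.29 in GFP- cells. Over all 22206 probe sets limma called 0 changes of enrichment (percent called 0), with 269 at an unadjusted p under 0.05.

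**Figure D3:**
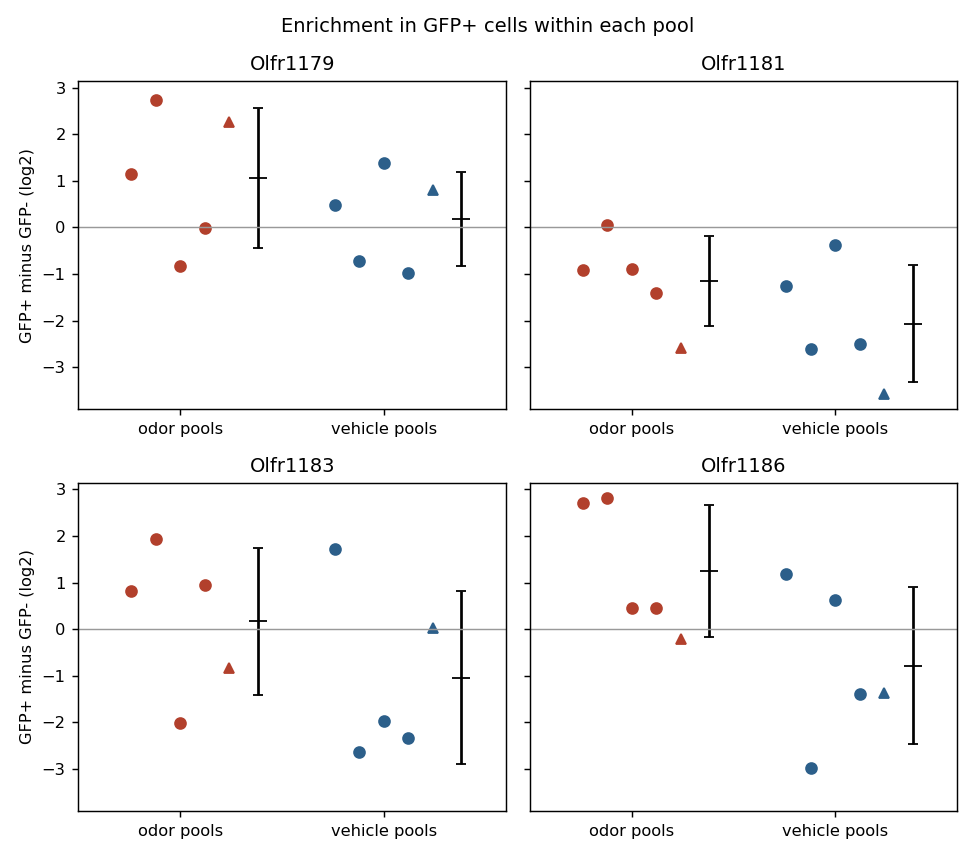
Log2 difference GFP+ minus GFP- of each receptor in the 5 odor pools and the 5 vehicle pools, with bars for the mean and SD and triangles for replicate 5. Points above 0 are pools in which GFP+ cells held the higher signal. The vehicle points of Olfr1181 all lie below 0, and the 2 conditions overlap for every receptor.

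The order of the 4 groups differed among the receptors. Olfr1181 was highest in odor GFP- cells (8.64 ± 0.75), then vehicle GFP- (8.20 ± 0.97), odor GFP+ (7.49 ± 0.51) and vehicle GFP+ cells (6.14 ± 0.79). Olfr1179 was highest in odor GFP+ cells (7.83 ± 0.56), then vehicle GFP+ (6.91 ± 0.85), odor GFP- (6.76 ± 1.02) and vehicle GFP- cells (6.72 ± 1.34). The step between odor GFP+ and vehicle GFP+ is the one by which the genes were chosen. In neither gene did another group differ from the next in order by more than the larger SD.

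Olfr1183 ran odor GFP+ (9.33 ± 0.98), odor GFP- (9.17 ± 1.56), vehicle GFP- (8.70 ± 1.64) and vehicle GFP+ (7.66 ± 1.50). Olfr1186 ran odor GFP+ (7.39 ± 0.85), vehicle GFP- (6.44 ± 1.85), odor GFP- (6.15 ± 0.87) and vehicle GFP+ (5.66 ± 0.74). In neither did a group differ from the next in order by more than the larger SD. Vehicle GFP+ cells came last for Olfr1181, Olfr1183 and Olfr1186, a place that the choice of the genes itself favours.

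Each array carries 23 background control rows, named for GC classes 3 to 25, whose median log2 signal was 5.14 to 6.34 and whose 95th percentile was 6.59 to 7.78. The 4 receptors were read against these array by array. Olfr1183 exceeded the 95th percentile on 18 of 20 arrays, Olfr1181 on 15, Olfr1179 on 12 and Olfr1186 on 8. The odor difference of Olfr1186 in GFP+ cells is thus between samples mostly above and samples mostly within the range of the controls.

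By group, Olfr1186 passed that percentile in 4 of 5 odor GFP+, 1 of 5 vehicle GFP+, 1 of 5 odor GFP- and 2 of 5 vehicle GFP- samples. In vehicle GFP+ cells it even lay below the control median on 3 of 5 arrays. By these control rows its 3.33-fold difference is thus set against signal at background. Olfr1181 passed in 4 odor GFP+, 1 vehicle GFP+, 5 odor GFP- and 5 vehicle GFP- samples. Olfr1179 passed in 5, 3, 2 and 2 samples of the same groups, and Olfr1183 in 5, 4, 5 and 4.

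Other control rows changed how far above background the receptors stood. Averaged over 20 arrays, the signal minus the control median was 1.48 for Olfr1179, 2.04 for Olfr1181, 3.14 for Olfr1183 and 0.83 for Olfr1186. Against the 7 control rows of the middle GC classes it was 4.35, 4.91, 6.01 and 3.71. In vehicle GFP+ cells Olfr1186 averaged 2.95 above those middle classes, with a lowest value of 2.18. It passed the median of the negative control rows there on 1 of 5 arrays. Against the 95th percentile of the 5222 negative control rows, added after seeing the data, Olfr1183 passed on 4 of 20 arrays and the others on 0. Signal of related receptors taken up by these probes was not tested, since probe sequences were not used here.

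The 15 neighbours are the 3 measured receptors between the 4 genes and 6 on each side. None passed the test for odor in GFP+ cells, where their median difference was 0.07 and 10 of 15 were positive. Over all probe sets the median was 0.03, with 12207 of 22206 positive, and over all receptors -0.05, with 491 of 1080 positive. Olfr1178, next to Olfr1179, had the largest, 0.70 (SE 0.41, limma adjusted p = 1.0), and Olfr1173 the lowest, -0.37 (SE 0.56). Of the receptors interleaved with the 4 genes, Olfr1180 was at 0.47 (SE 0.65), Olfr1184 at 0.22 (SE 0.39) and Olfr1182 at -0.31 (SE 0.51). Every neighbour was thus below the 0.92 of Olfr1179, a gap that the choice of the 4 genes itself creates.

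**Figure D4:**
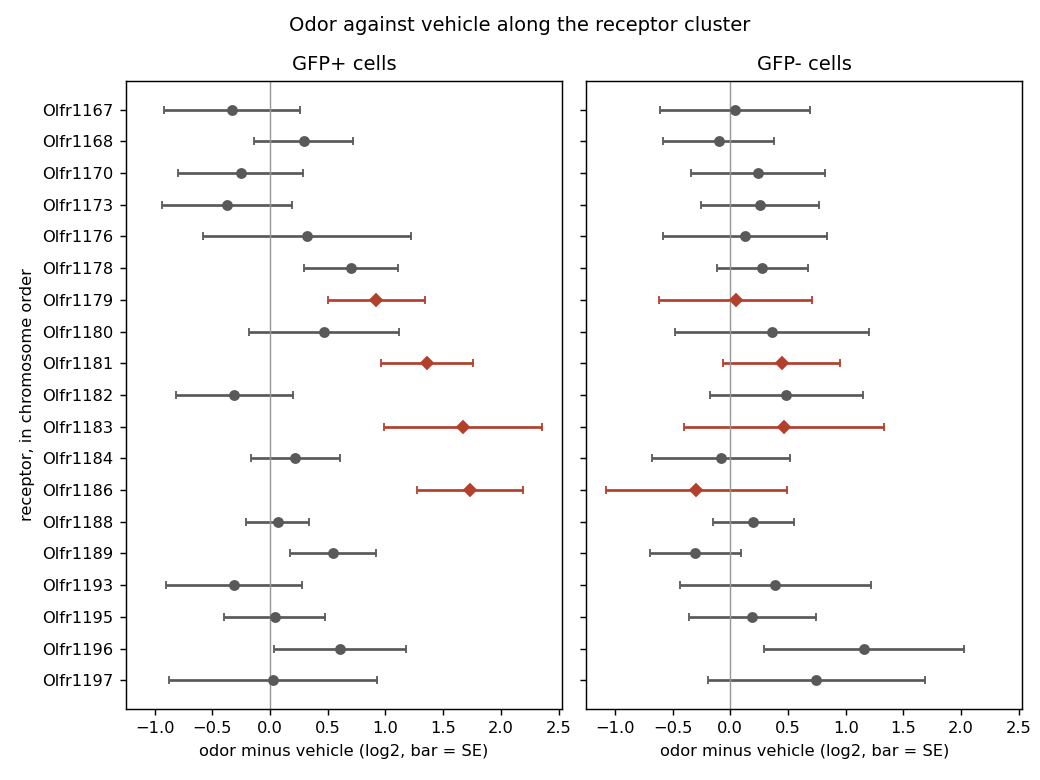
Log2 difference odor minus vehicle for the 19 receptors in chromosome order, in GFP+ cells and in GFP- cells, with bars for the SE and the 4 chosen receptors marked. In GFP+ cells the 15 neighbours range between -0.37 and 0.70. In GFP- cells the 4 chosen receptors lie among their neighbours.

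In GFP- cells 0 of 15 neighbours passed, and their median odor difference was 0.24, with 12 positive. Over all receptors that median was 0.12, with 686 of 1080 positive, and over all probe sets 0.02, with 11750 of 22206 positive. The 4 receptors, at -0.29 to 0.47, fell within the neighbours' range of -0.30 (Olfr1189) to 1.16 (Olfr1196). The 100 other receptors Olfr1141 to Olfr1277 of this chromosome had medians of 0.04 in GFP+ and 0.18 in GFP- cells, and 0 of them passed in either.

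Between the sorted fractions the same neighbours differed strongly. In odor pools 6 of 15 were higher in GFP+ cells and 6 lower by limma. Of all probe sets 2.07% were higher and 5.82% lower there (7.89% in either direction), and of all receptors 30.5% and 17.1%. In vehicle pools 5 of 15 were higher and 5 lower, or 4 lower with the replicate number as a block (Olfr1196, limma adjusted p = 0.0217, or 0.0536 with the block). There the shares were 2.26% and 6.86% of all probe sets (9.11% in either direction) and 33.7% and 15.7% of receptors. The shares among the neighbours are counts of a small set, and no test sets them apart from other receptors.

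Olfr1178 and Olfr1176 were the most depleted from GFP+ cells, at -5.58 and -5.33 in odor pools and at -6.00 and -5.52 in vehicle pools. Olfr1178 passed the control median on 4 of 5 odor GFP+ and 0 of 5 vehicle GFP+ arrays, and the 95th percentile on 0 of either, so its difference is set by background. Olfr1176 passed that percentile on 2 of 5 odor GFP+ and 2 of 5 vehicle GFP+ arrays, Olfr1182 on 1 and 2, and Olfr1184 on 0 and 1, so their sizes are also set against signal near background. Among the interleaved receptors, Olfr1182 was at -3.32 in odor pools and -2.53 in vehicle pools (limma adjusted p = 0.00059 and 0.00425), and Olfr1184 at -3.12 and -3.42 (adjusted p = 0.00164 and 0.000666). Olfr1180, between Olfr1179 and Olfr1181, was enriched instead, by 1.87 in odor pools and 1.77 in vehicle pools (adjusted p = 0.00947 and 0.0124). Receptors close together on the chromosome thus differed in opposite directions between the fractions.

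**Figure D5:**
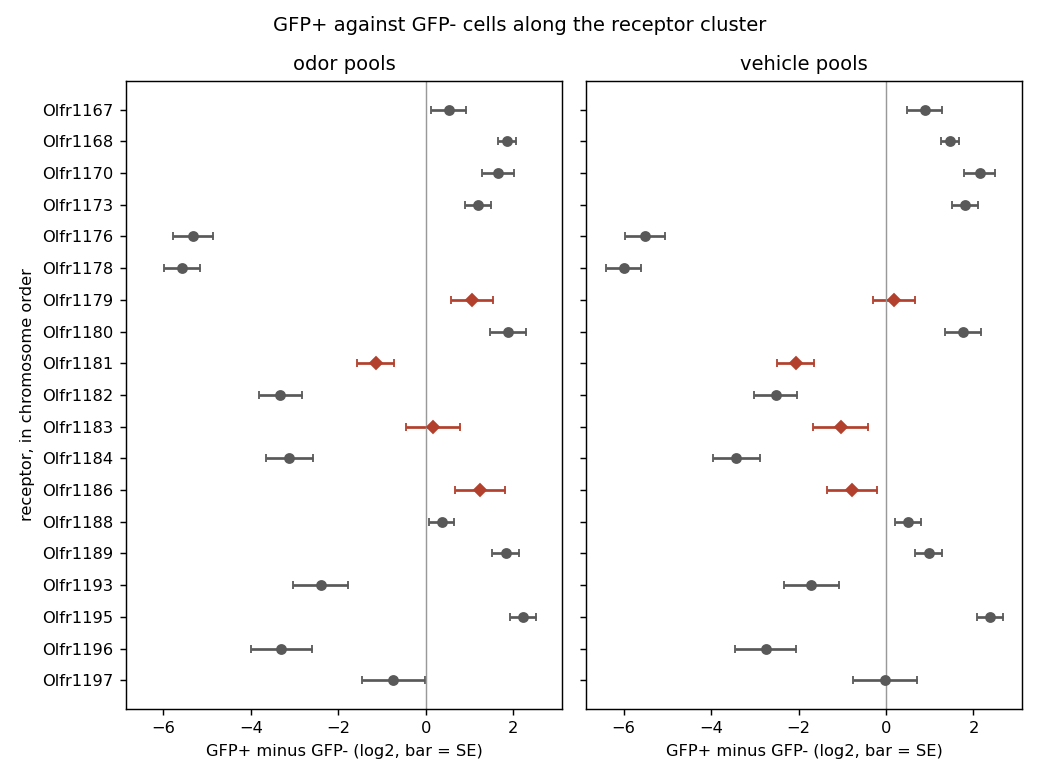
Log2 difference GFP+ minus GFP- for the 19 receptors in chromosome order, in odor pools and in vehicle pools, with bars for the SE. Olfr1176, Olfr1178, Olfr1182, Olfr1184, Olfr1193, Olfr1196 and Olfr1197 lie to the left of 0 in both panels, and the other neighbours lie to the right, while the 4 marked receptors lie between -2.06 and 1.24.

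Grouped by family, a grouping made after seeing the data, 6 of the 9 other measured MOR225 receptors were lower and 1 higher in GFP+ cells, in odor pools and in vehicle pools alike. Of all receptors 17.1% were lower in odor pools and 15.7% in vehicle pools, and of all probe sets 5.82% and 6.86%. Of the 6 other MOR230 receptors, 3 were higher and 0 lower in odor pools and likewise in vehicle pools. Of all receptors 30.5% were higher in odor pools and 33.7% in vehicle pools, and of all probe sets 2.07% and 2.26%. The family was read from the first older MOR name. Olfr1193, a neighbour named both MOR226-1 and MOR230-9, was thus not counted in MOR230. Its difference was -2.41 in odor pools and -1.71 in vehicle pools (limma adjusted p = 0.0298 and 0.138). The count of 0 lower in odor pools therefore depends on that reading of the names. Olfr1178, Olfr1180, Olfr1182, Olfr1184, Olfr1196 and Olfr1197 of MOR225 and Olfr1195 of MOR230 are neighbours already counted above. The family counts are thus not separate from those of the neighbours. Their odor differences in GFP+ cells were -0.31 to 0.81 for the 9 MOR225 and -0.24 to 0.81 for the 6 MOR230 receptors, and 0 passed.

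The probe sets most like each receptor were sought among those with a gene symbol. The measure was the root mean square difference of log2 signals over the 20 arrays, each centred on its own mean. A smaller value is more alike. For Olfr1179 they were Olfr1223 (0.67), Cd82 (0.67) and Cnppd1 (0.68), and for Olfr1181 Rreb1 (0.69), Clec4a1 (0.69) and Ms4a3 (0.72). For Olfr1183 they were Olfr220 (0.73), Socs2 (0.81) and Prelid1 (0.86), and for Olfr1186, of genes outside the 4, Zc3h7b (0.97), Serping1 (0.98) and Shisa7 (0.98). Olfr220, a receptor on chromosome 1, was 1.68 higher with odor in GFP+ cells, close to the 1.67 of Olfr1183. The search used these same arrays and so favours probe sets with a like odor difference.

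Among themselves the 4 receptors were less alike than each was to these, with one exception. Olfr1179 and Olfr1186, from different families, differed by 0.89. Of all probe sets with a gene symbol, Olfr1179 was the nearest to Olfr1186 over the 20 arrays. It was not the nearest under other settings, at rank 304 over the 10 GFP+ arrays alone (1.01, where Olfr1181 was nearer at 0.87) and at rank 8 with each group centred (0.81). The other pairs differed by 1.16 to 1.45, the last for Olfr1179 and Olfr1181 of the same family. The median over all receptors was 1.27 for Olfr1179, 1.66 for Olfr1181, 1.51 for Olfr1183 and 1.58 for Olfr1186.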

How the data were processed

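Signals of Clariom S mouse arrays came as log2 values, 1 per probe set, as the range of the deposited table shows. The authors processed them with Affymetrix Expression Console, per the submitters' processing notes. The sources used here do not give its version, background correction or normalization. The values were used as they stand, with no filter on dim probe sets. Of 28846 rows, 6640 control rows were left out of tests and 22206 were kept. Of these 19572 carried 1 gene symbol, all matched by Entrez ID to the RefSeq table of GRCm38.p6, used for names, families and gene order. No build is named for the array table, so gene coordinates are not given. Detection calls were not used here.

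Tests used limma 3.58.1 in R 4.3.3 (lmFit, eBayes), two-sided, with Benjamini-Hochberg adjustment over 22206 probe sets at 0.05. Odor was compared with vehicle over the 10 samples of a fraction. GFP+ minus GFP- was fitted on within-pool differences. Odor and vehicle samples share replicate numbers. Deviations of same-numbered samples correlated at 0.16 to 0.86 in GFP+ cells and at -0.38 to 0.84 in GFP- cells, highest in replicate 5. In GFP+ cells odor 1 matched vehicle 2 best, and odor 4 matched vehicle 3 best. The labels state no pairing of odor with vehicle pools. The main tests of odor therefore left the number out, and the block was an alternative. Arrays limit precision by their number, and no 2 shared over 0.00901% of values. Pools are taken as separate samples from the labels. The fits were tested on simulated data.

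The receptors and lists were chosen with earlier results of these data known. Named genes were the 4 receptors, their 15 neighbours, the 3 probe sets most like each, S100a5, and examples. Marker lists of immature neurons, sustentacular and other cells were also measured. All 6 immature neuron markers averaged above the mean background in each group. Their summed log2 levels were 13.0 to 14.4 in odor GFP+, 12.5 to 14.3 in vehicle GFP+, 13.9 to 15.6 in odor GFP- and 13.9 to 16.0 in vehicle GFP- cells. The 5 sustentacular markers gave 11.4 to 15.6, 13.1 to 15.4, 13.6 to 15.7 and 13.6 to 16.0 in those groups, and the 4 of other sensory and microvillar cells 12.1 to 13.6, 11.8 to 13.7, 12.3 to 14.6 and 12.1 to 14.6. The last sums follow Car2, and 3 of these 4 lay below the mean background in both GFP+ groups. Trpm5 averaged 5.35 in odor GFP+ and 9.78 in odor GFP- cells, and Gucy2d 3.28 and 3.37. The immature neuron sums follow their brightest markers. Gng8 averaged 5.55, near background, in odor GFP+ and 9.42 in odor GFP- cells, and Gap43 8.60 and 11.2. Only Crmp1 of these 6 averaged higher in GFP+ cells, at 12.4 against 11.8 with odor. Alternatives were each pool left out, the replicate as a block, replicate 5 left out, quantile normalization, centring on array medians, an intensity trend, a filter on dim probe sets, other control rows and other likeness settings.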

Additional observations from a re-analysis of the deposited data

How the results depend on the processing

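For odor in GFP- cells, leaving out 1 pool at a time gave -0.33 to 0.41 for Olfr1179, 0.15 to 0.71 for Olfr1181, -0.16 to 0.91 for Olfr1183 and -0.79 to 0.16 for Olfr1186. The sign turned in 9 of 68 alternatives, and none passed (limma adjusted p 0.9957 to 1.0). With the replicate block these differences cannot change, and 0 probe sets were called, as in GFP+ cells. Their SE with the block was 0.62, 0.35, 0.65 and 0.61 in the same gene order. The counts of 0 for odor in either fraction and for its change of enrichment were 0 under every alternative run. Sort calls ranged over 1236 to 2166 probe sets in odor pools and 1483 to 2380 in vehicle pools. Among the 15 neighbours, 8 to 13 were called in odor pools and 8 to 12 in vehicle pools. The 272 alternatives of the other comparisons of the 4 receptors moved none by more than 1 SD between samples. Most could not have done so, and the count therefore does not show stability. Leaving out 1 pool shifts a mean by less than that. The block, the intensity trend and the dim filter leave a difference as it is. Below that limit, Olfr1179 in GFP+ cells went from 0.92 to 0.38 without the pools of the 3 arrays in doubt. Leaving out 1 pool turned the sign of Olfr1183 in odor pools (0.17 to -0.27) and of Olfr1179 in vehicle pools (0.19 to -0.11).

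Leaving out 1 pool gave GFP+ odor differences of 0.62 to 1.21 for Olfr1179, 1.07 to 1.57 for Olfr1181, 1.22 to 2.25 for Olfr1183 and 1.40 to 2.04 for Olfr1186. Without the pools of the 3 arrays in doubt they were 0.38, 1.20, 1.63 and 1.21. Means over background with control rows of middle GC classes were 4.35, 4.91, 6.01 and 3.71, and the arrays above the 95th percentile of the negative controls were 0, 0, 4 and 0, in the same gene order. The cause was not tested. Signal near background limits Olfr1186 most.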
